A study of Mus musculus with 9 samples.

Results

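Gastric parietal cells, the acid-secreting cells of the stomach, were compared with unablated Mist1+ chief cells of the gastric corpus. The comparison used 6 of the 9 Affymetrix mouse genome arrays of the study, namely the 3 arrays titled parietal cell and the 3 titled chief, and its members were chosen from those titles alone. It was described across 10338 genes whose signal passed a filter on low values, of 18193 genes with a probe set, a set of short probes that reads the RNA of one gene. The remaining 3 arrays hold Mist1+ cells sorted after Lgr5+ cells had been ablated, and they did not enter the comparison.

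Both groups are mouse stomach cells of the strain C57BL/6, and no ablation or other treatment is labelled for either. The chief samples are corpus cells positive for Mist1 and Tomato that were collected by fluorescence-activated cell sorting, Tomato being a red fluorescent reporter and Mist1 the transcription factor encoded by Bhlha15. What drives the reporter, the age and number of the mice, and the way in which the parietal cells were collected, are details not given in the sources used here. The labels do not say that the 3 samples of a group came from separate animals, so p-values reflect only how far these samples scatter, and that scatter may be technical.

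A parietal cell secretes hydrochloric acid with a proton pump, the H+/K+-ATPase, that is stored in tubulovesicles and moved to the apical canaliculus when histamine, acetylcholine or gastrin stimulates the cell. The pump exchanges potassium for protons, so it depends on potassium and chloride channels in the same membrane, on a bicarbonate exporter in the basal membrane and on a large supply of ATP from densely packed mitochondria. A chief cell makes pepsinogen and, in the mouse, gastric intrinsic factor, which it folds in an extensive endoplasmic reticulum (ER) and stores in zymogen granules under the control of Mist1.

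Values are log2 signals, so a difference of 1 is a 2-fold difference. A gene was called where the limma test between the 3 parietal and 3 chief arrays gave a p-value, adjusted over all genes tested by the Benjamini-Hochberg method, under 0.05. With that rule 1162 genes (11.2%) were called higher in the parietal samples and 1252 (12.1%) lower, 23.4% in all. Of these, 854 were at least 2-fold higher and 1079 at least 2-fold lower. The arrays of the 2 groups did not overlap for 2029 genes higher (19.6%) and 2131 genes lower (20.6%) in the parietal samples, 40.2% in all. The filter asked for a signal above the array median on 3 of the 6 arrays, and 233 genes passed it through the chief arrays alone and 159 through the parietal arrays alone. Such genes had to differ, so counts over tested members are a description, and no p is given below for a gene named from among them. Not each of them is marked below. Arrays correlated at 0.810 to 0.846 within the chief group and 0.878 to 0.890 within the parietal group, against 0.647 to 0.693 between groups, which describes these 6 arrays across genes.

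The scale of the arrays differed with the group. The median signal was 5.80 to 5.86 on the parietal arrays and 6.38 to 6.70 on the chief arrays, although the trimmed mean of the linear signal was 496 to 497 on each. Centring every array on its own median adds 0.69 to each difference and moves the median difference of all genes tested from -0.06 to 0.63. The calls then number 3169 higher and 691 lower, so small differences depend on this choice and are marked below where they turn. Quantile normalization, which makes the distributions equal, gave 1150 higher and 1103 lower and a median of 0.06. Where arrays were left out, the filter still asked for 3 arrays. A gene that had passed through the 3 arrays of 1 group alone then left the test once 1 of them was missing. The counts below with arrays left out include such losses, which the filter fixes in advance. Leaving out 1 array moved a count by over 1.5 times in 5 cases. Genes called lower numbered 811 without chief array 2 and 717 without chief array 3, and genes called higher numbered 720, 730 and 644 without parietal arrays 1, 2 and 3.

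Samples also differed in ways that the groups do not explain. Xist, the RNA of the inactive X chromosome, read 13.13 on parietal array 1 and 11.72 on chief array 3 and 4.56 to 5.93 on the other 4. The Y-linked gene Eif2s3y read 2.84 on parietal array 1 and 10.63 to 11.59 on the other 5, chief array 3 included. Without these 2 arrays the calls numbered 558 higher and 497 lower. Chief array 3 also carried collagen RNA, with Col1a1 at 12.48 against 5.21 and 7.26 on the other chief arrays. Where 3 arrays of the dimmer group did not all lie above their array medians, the fold is written as at least that size, with each dim array set no lower than its own median. The choice of members and of lists is described with the processing, and several lists share genes.

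**Figure D1:**
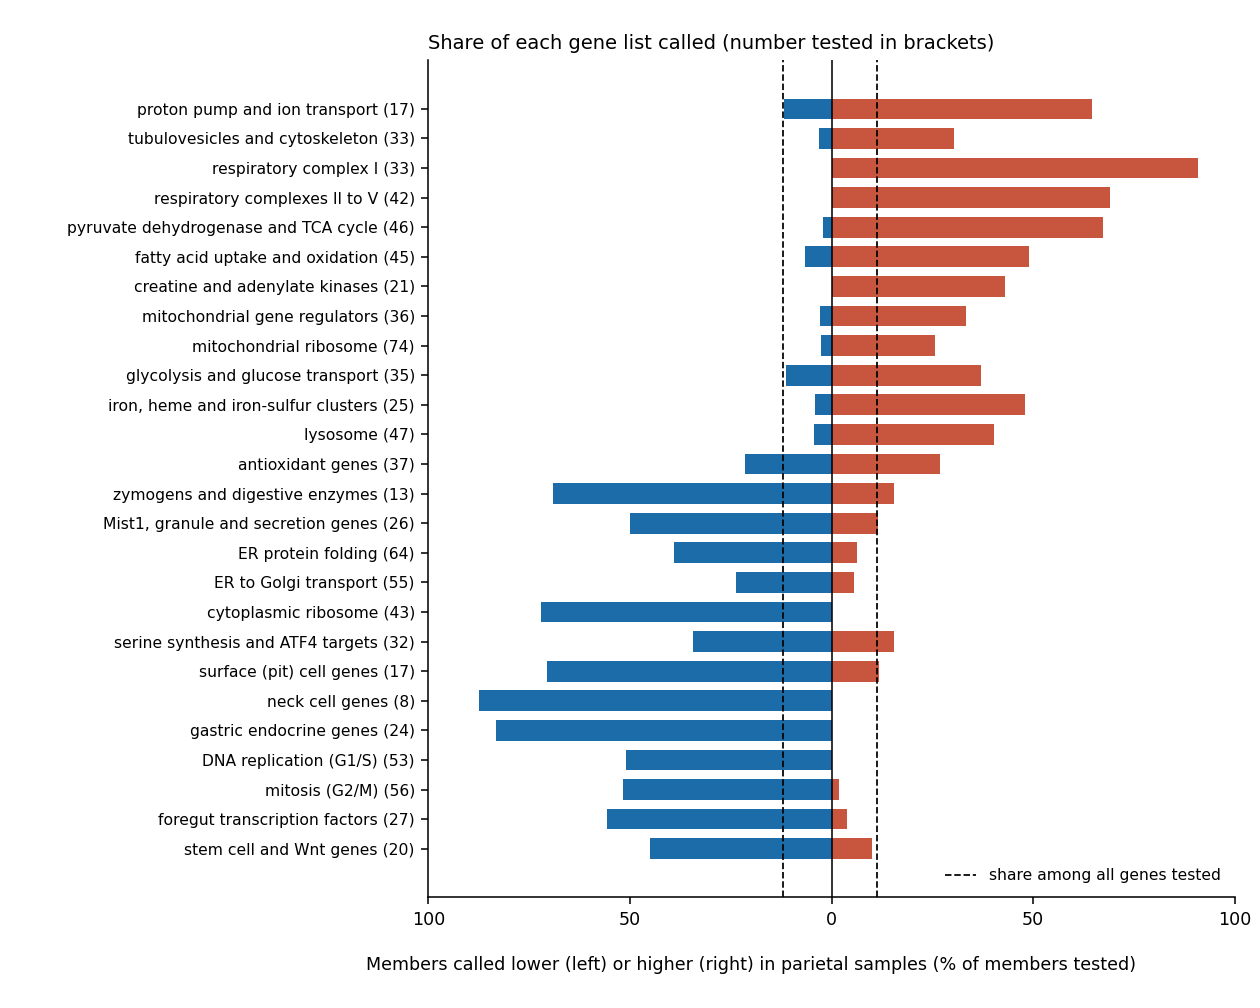
Share of the tested members of each gene list called lower (left, blue) or higher (right, red) in the parietal samples by limma, with the number tested in brackets; dashed lines mark the 12.1% and 11.2% of all genes tested that were called in each direction. With every array centred on its median the red shares grow and the blue ones shrink, the most for the ribosomes, where 31 cytoplasmic ribosomal genes called lower become 1.

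Most tested genes of the proton pump and its ion pathways were higher in the parietal samples. Of 20 members with a probe set 17 were tested, and 11 were called higher and 2 lower, against 11.2% and 12.1% of all genes. Their median difference was 1.05 where that of all genes was -0.06.

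Atp4a, the catalytic subunit of the pump, read 13.06, 13.75 and 12.63 on the chief arrays and 14.23, 14.03 and 14.32 on the parietal arrays. The groups did not overlap, yet the gene was bright on all 6 arrays, and the difference was 1.05 (SE 0.23, n = 3 and 3, adjusted p = 0.00769). Atp4b, the glycosylated subunit that carries the pump to the membrane, read 12.75, 12.58 and 12.55 on the chief arrays and 14.30, 14.09 and 14.35 on the parietal arrays, which is 3.07-fold higher (adjusted p = 1.71e-05). Both pump genes were therefore well above the array medians in the sorted chief samples. In bulk samples like these a few cells of a type and a low level of its RNA in many cells cannot be told apart.

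Potassium channel genes did not move alike. Kcnq1, the channel pore that returns potassium to the canaliculus, read 10.88, 11.17 and 10 on chief arrays and 12.12, 12.63 and 12.43 on parietal arrays, 3.27-fold higher (adjusted p = 0.00265). Its partner in the stomach is Kcne2, at 10.40, 11.92 and 9.70 on chief arrays and 13.35, 13.03 and 13.41 on parietal arrays. That is a 6.02-fold difference (adjusted p = 0.00219) with no overlap, although chief array 2 stood above the other chief arrays. Kcne1, the partner of the same pore in heart and inner ear, read 4.36, 5.72 and 6.70 on chief arrays and 11.46, 11.84 and 11.15 on parietal arrays. It was at least 31.0-fold higher, but none of its chief readings lay above the array median, so it passed the filter through the parietal arrays alone. Kcnj16, an inwardly rectifying potassium channel, was 6.87-fold higher and Kcnj15, another member of that family, 1.98-fold higher.

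Anion and water transport followed the same direction. Slc4a2, the chloride-bicarbonate exchanger of the basal membrane, read 11.87, 12.25 and 11.80 on chief arrays and 13.95, 13.77 and 14.02 on parietal arrays, 3.84-fold higher (SE of the log2 difference 0.15, adjusted p = 2.85e-05). Slc26a7, an anion exchanger of parietal cells, did not exceed 6.32 on any chief array and read 11.68 to 12.06 on the parietal arrays. Aqp4, a water channel of the basal membrane, was at least 19.6-fold higher (adjusted p = 0.000266), at 11.03, 11.24 and 11.67 against 6.53, 7.84 and 5.82. Clic6, an intracellular chloride channel protein, was 3.57-fold higher. The 2 members called lower were Slc41a2, a magnesium transporter (9.02-fold), and Kcnk1, a background potassium channel (6.82-fold). None of the single arrays moved the count of 11 by over 1.5 times when left out.

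The promoter of Kcnj16 is shown because Esrrg, a nuclear receptor that binds the estrogen-related receptor element, was also higher in the parietal samples. The sequence is the stretch of 250 bases before the gene's start, from RefSeq on GRCm38.p6 at chr11:110967783-110968032, plus strand, and the capitals mark a match to TNAAGGTCA read on the opposite strand, 190 to 182 bases before the start.
Kcnj16: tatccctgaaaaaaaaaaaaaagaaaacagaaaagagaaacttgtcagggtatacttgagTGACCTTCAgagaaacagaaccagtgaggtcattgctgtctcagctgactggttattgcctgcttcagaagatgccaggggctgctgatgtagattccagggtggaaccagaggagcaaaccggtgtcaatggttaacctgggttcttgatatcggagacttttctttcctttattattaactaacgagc
Windows from 250 bases before to 50 after the start were searched on both strands for TNAAGGTCA. Such a match was found in 1.43% of the windows of all 27025 genes in the table and in 0.771% of those of the genes tested. Among genes called higher in the parietal samples it was 0.73%, and among the 132 mitochondrial energy genes called higher that have a window it was 0. A match is a description of the letters and not a site of binding.

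Receptors for signals that drive or restrain gastric secretion went both ways. Of 18 with a probe set 10 were tested, and 3 were called higher and 5 lower. Hrh2, the histamine receptor through which acid secretion is driven, read 6.27, 6.68 and 6.60 on chief arrays and 10.85, 9.56 and 10.66 on parietal arrays, at least 13.6-fold higher (adjusted p = 0.000553). Chrm3, the muscarinic receptor for acetylcholine, read 2.41, 6.53 and 6.42 against 8.67, 8.31 and 9.16 (at least 4.52-fold, adjusted p = 0.0334). Sstr2, through which somatostatin restrains the cell, was 5.11-fold higher. The gastrin receptor gene Cckbr was not called, at 8.02, 8.34 and 7.73 on chief arrays and 10.26, 7.2 and 7.78 on parietal arrays, where only parietal array 1 stood out.

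The receptor with the widest difference the other way was Cckar, which reads cholecystokinin. It read 13.58, 12.31 and 12.58 on chief arrays and 6.75, 5.38 and 4.15 on parietal arrays, at least 103-fold lower in the latter (adjusted p = 4.46e-05). Sctr, the secretin receptor, was at least 9.23-fold lower, Glp1r, the receptor of glucagon-like peptide, at least 9.87-fold lower, and Ptger4, a prostaglandin receptor, at least 8.79-fold lower. Ptger3, the prostaglandin receptor that inhibits acid secretion, was 6.22-fold lower. Leaving out both arrays with high Xist left 2 of 7 tested receptors called lower, and without the intensity trend in limma 3 of 10 were.

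Genes of tubulovesicles and the canalicular membrane held 10 called higher and 1 lower of 33 tested (38 with a probe set), with a median difference of 0.42. Rab11fip5, a Rab11 effector of recycling vesicles, read 5.53, 8.19 and 9.11 on chief arrays and 11.62, 12.28 and 12.27 on parietal arrays, at least 17.9-fold higher. Radixin (Rdx), which links actin to the membrane, was 8.77-fold higher, ankyrin G (Ank3) 6.03-fold and the SNARE protein Stx12 3.17-fold. Ezrin (Ezr), the classical actin linker of the parietal canaliculus, differed by less, 12.32, 12.83 and 12.66 against 13.34, 13.37 and 13.43 (1.71-fold, adjusted p = 0.00408). Snap25, a SNARE of neurons and endocrine cells, was at least 12.7-fold lower. The number called higher was 22 with arrays centred, 4 without the intensity trend and 6 without both arrays with high Xist.

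Carbonic anhydrases make the protons and bicarbonate that the cell exports. Of 15 with a probe set 8 were tested, and 1 was called higher and 1 lower. That is 12.5% each way, near the 11.2% and 12.1% of all genes. With arrays centred 4 were called higher and 0 lower. Car2, the soluble enzyme of parietal cells, read 13.98, 13.71 and 14.04 on chief arrays and 13.85, 13.93 and 14.03 on parietal arrays, with overlapping groups (difference 0.03, SE 0.11, adjusted p = 0.886). Car5b, the mitochondrial form, was 3.23-fold higher (adjusted p = 0.000867), and Car9, a membrane form, was 1.62-fold lower (adjusted p = 0.0214), a call lost without chief array 2 or parietal array 1 or 2, without the intensity trend and with arrays centred.

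**Figure D2:**
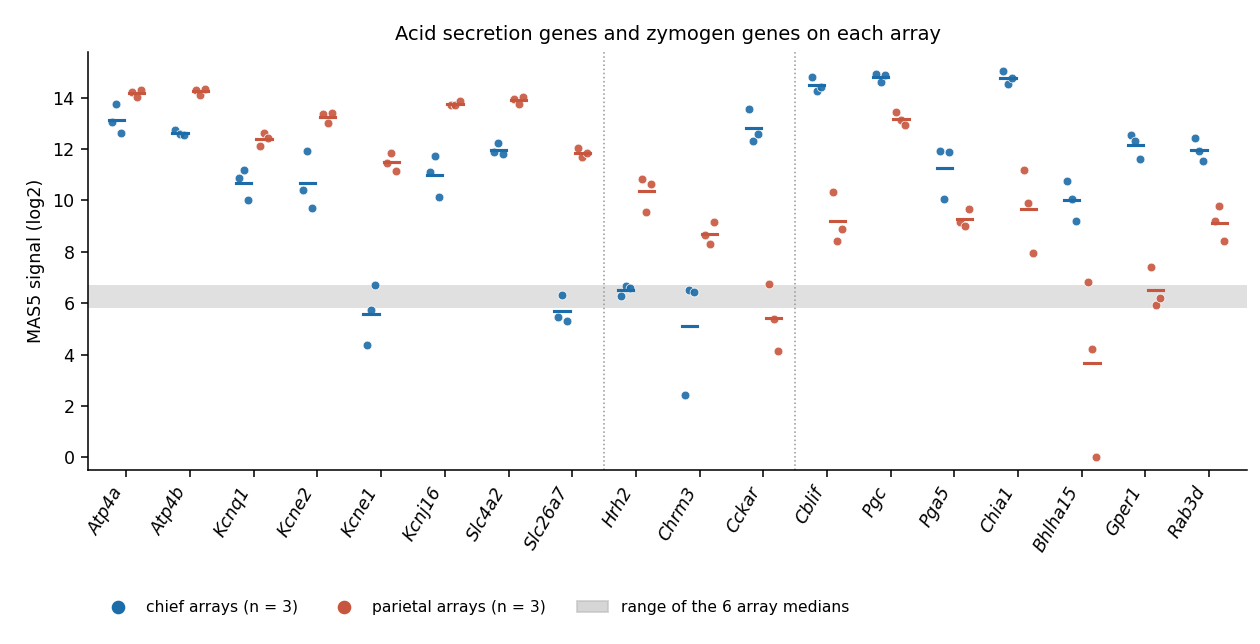
Log2 signal of acid secretion genes (left), secretagogue receptors (middle) and zymogen and granule genes (right) on each array; points are the 3 chief (blue) and 3 parietal (red) arrays, short lines their means, and the grey band the range of the 6 array medians, 5.80 to 6.70. Atp4a, Atp4b and Pgc were bright on all 6 arrays, while Slc26a7, Hrh2 and Cckar lay near the grey band in one group.

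Zymogen and digestive enzyme genes were mostly lower in the parietal samples. Of 24 with a probe set 13 were tested, and 9 were called lower and 2 higher, with a median difference of -1.73. Cblif, gastric intrinsic factor, read 14.79, 14.28 and 14.42 on chief arrays and 10.32, 8.43 and 8.90 on parietal arrays (SE of the log2 difference 0.40). Pgc, pepsinogen C, differed much less, at 14.92, 14.63 and 14.88 against 13.45, 13.13 and 12.92, which is 3.12-fold lower (adjusted p = 3.78e-05). The parietal arrays thus still gave a Pgc signal far above their medians of 5.80 to 5.86.

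Chia1, acidic chitinase, was 34.4-fold lower, at 15.03, 14.53 and 14.78 on chief arrays and 11.17, 9.89 and 7.97 on parietal arrays (adjusted p = 0.000252). Pnliprp2 and Pnliprp1, pancreatic lipase-related proteins, were at least 188-fold and 44.8-fold lower. Pga5, pepsinogen A, was 3.99-fold lower and the colipase gene Clps 2.73-fold lower. Cel, the bile salt-stimulated lipase, read 8.23, 8.69 and 8.13 in the chief samples and no more than 2.28 in the parietal samples (at least 5.71-fold). The 2 members called higher were Amy1, an amylase, at 7.31, 5.82 and 4.55 against 10.46, 10.85 and 10.90 (at least 14.9-fold, adjusted p = 0.000715), and the ribonuclease gene Rnase1, at 11.16 to 11.62 in the parietal and at most 4.56 in the chief samples. The number called lower was 5 of 9 tested without both arrays with high Xist. The number called higher was 1 of 12 without any 1 parietal array. Rnase1 had passed the filter through the parietal arrays alone and was not tested there. The 2 called higher are 15.4% of the 13 tested, against 11.2% of all genes. The summed signal of the 24 genes was 128658 to 178389 on the chief arrays and 31510 to 43885 on the parietal arrays, and 9 of them lay below the array median on all 3 parietal arrays.

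Mist1 and the genes of regulated secretion were lower in the parietal samples in 13 of 26 tested members and higher in 3 (32 with a probe set, median difference -1.51). These are 50% and 11.5%, against 12.1% and 11.2% of all genes, so the share called higher was near that of all genes. Bhlha15 itself read 10.75, 10.05 and 9.20 on chief arrays and 6.82, 4.21 and 0.00 on parietal arrays, at least 14.3-fold lower (adjusted p = 0.00916), and the 0.00 is a floor of the processing. Gper1, a membrane estrogen receptor of chief cells, read 12.53, 12.30 and 11.60 against 7.39, 5.93 and 6.22. Rab3d, a GTPase of zymogen granules, was 7.11-fold lower (12.45, 11.92 and 11.53 against 9.19, 9.80 and 8.42, adjusted p = 0.000688). Sytl2, which tethers granules, was at least 18.2-fold lower, and Creb3l1, a transcription factor of secretory cells, 6.33-fold lower.

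Members of that list higher in the parietal samples were Sytl4 (3.89-fold), a Rab27 effector, Creb3l2 (1.98-fold), a relative of Creb3l1, and Vamp8 (1.43-fold), a SNARE used for exocytosis. Xbp1, the ER stress factor that acts upstream of Mist1, was not called, at 13.39, 12.87 and 12.89 on chief arrays and 12.67, 12.87 and 12.98 on parietal arrays (adjusted p = 0.4). Without both arrays with high Xist 8 members were called lower of 22 tested and 1 higher, and 8 were called higher with arrays centred.

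The promoters of Gjb1 and Rab27a are shown because both are known Mist1-dependent or granule genes, were lower with Bhlha15 and hold CATATG, the E-box that Mist1 binds. Gjb1, a gap junction channel of exocrine cells, read 7.90, 8.20 and 8.35 on chief arrays and 4.44, 4.38 and 3.18 on parietal arrays (at least 4.97-fold lower), having passed the filter through the chief arrays alone. Rab27a, a GTPase of secretory granules, read 9.45, 8.91 and 9.09 against 7.60, 7.27 and 7.97 (2.90-fold lower, adjusted p = 0.0404). The sequences are the 250 bases before the start from RefSeq on GRCm38.p6, both plus strand, at chrX:101383482-101383731 for Gjb1 and chr9:73063898-73064147 for Rab27a. Capitals mark the motif, 19 to 14 bases before the start of Gjb1 and 26 to 21 before that of Rab27a.
Gjb1: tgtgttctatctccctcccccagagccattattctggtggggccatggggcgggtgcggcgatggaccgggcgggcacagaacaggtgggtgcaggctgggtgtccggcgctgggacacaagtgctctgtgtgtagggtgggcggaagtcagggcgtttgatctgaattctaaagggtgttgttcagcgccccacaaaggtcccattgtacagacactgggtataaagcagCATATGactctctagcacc
Rab27a: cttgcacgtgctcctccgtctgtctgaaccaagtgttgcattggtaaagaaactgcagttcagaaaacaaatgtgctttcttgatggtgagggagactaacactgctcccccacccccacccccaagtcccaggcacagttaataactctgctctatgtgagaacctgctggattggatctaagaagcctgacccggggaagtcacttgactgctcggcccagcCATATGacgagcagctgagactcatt
CATATG reads the same on both strands and was found in 4.48% of all windows, 2.05% of those of genes tested, 1.84% of those of genes called lower and 3.02% of those of genes called higher. Among 45 genes of the secretory lists called lower that have a window, 2 (4.44%) held it, namely these, and 3.15% of all tested genes of these lists with a window did.

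ER folding and stress genes had 25 called lower and 4 higher of 64 tested, with a median of -0.54 that turned to 0.16 with arrays centred, when 10 were called lower and 14 higher. Derl3, which passes misfolded protein out of the ER, was at least 13.4-fold lower, Sdf2l1, a cofactor of the chaperone BiP, 8.17-fold, and the disulfide isomerases Pdia5 (at least 7.05-fold) and Pdia4 (5.30-fold) were lower too. Hspa5, BiP itself, read 14.03, 13.35 and 13.73 on chief arrays and 13.14, 12.78 and 12.98 on parietal arrays, 1.67-fold lower (adjusted p = 0.0108), which is a difference that the centring nearly removes. Eif2ak3, the ER stress kinase PERK, was higher instead, at 9.68, 9.05 and 8.83 against 11.02, 11.85 and 12 (5.41-fold, adjusted p = 0.00102). Without the intensity trend 13 were called lower, and the count called higher ran from 1 without parietal array 2 or 3 to 7 without chief array 1, with 2 without any of chief arrays 2 and 3 and parietal array 1.

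ER to Golgi vesicle genes had 13 called lower and 3 higher of 55 tested, with a median of -0.33 that turned to 0.37 with arrays centred, when 4 were lower and 13 higher. Tmed6, a cargo receptor of secretory cells, was 13.9-fold lower, at 14.46, 13.48 and 13.67 against 10.69, 9.94 and 9.58, and Tmed3 3.51-fold lower. Leaving out chief array 1 or parietal array 2 left 8 called lower, and without the intensity trend 4 were.

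The respiratory chain was higher in the parietal samples in most of its tested genes. Complex I, which takes electrons from NADH, had 30 called higher and 0 called lower of 33 tested (34 with a probe set), against 11.2% and 12.1% of all genes, with a median difference of 0.84. Ndufs1, its largest subunit, read 10.71, 10.88 and 10.67 on chief arrays and 12.41, 12.74 and 12.58 on parietal arrays, 3.54-fold higher (adjusted p = 0.000147). Ndufa10 was 2.80-fold higher and Ndufa8 and Ndufs3, further subunits, 2.45-fold and 2.31-fold. Without the intensity trend 12 of the 33 were called, and the other settings run gave between 22 and 33.

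Complexes II to IV, cytochrome c and ATP synthase had 29 called higher and 0 lower of 42 tested (45 with a probe set), with a median of 0.51. Uqcrfs1, the iron-sulfur subunit of complex III, was 3.72-fold higher, Uqcrc1, a core subunit, 2.71-fold, and Sdhb, the iron-sulfur subunit of complex II, 2.52-fold. Cox7a1, the heart and muscle form of a complex IV subunit, stood apart at 9.62, 9.77 and 10.63 on chief arrays and 13.62, 13.75 and 13.89 on parietal arrays (13.4-fold, SE of the log2 difference 0.26, adjusted p = 1.65e-05). Some other subunits were already near the top of the scale in both groups, as Cox6a1 was at 14.15 to 14.31 and 14.27 to 14.48. Without the intensity trend 7 were called, and without both arrays with high Xist 17.

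Regulators of mitochondrial biogenesis were called higher in 12 and lower in 1 of 36 tested, median 0.41. Ppargc1a, the coactivator PGC-1α, read 9.53, 8.67 and 8.51 on chief arrays and 11.51, 11.01 and 12.13 on parietal arrays, 6.26-fold higher (adjusted p = 0.00106), and its relative Ppargc1b was 3.63-fold higher. The estrogen-related receptors, nuclear receptors that work with PGC-1α, differed among themselves. Esrrg read 12.04, 13 and 11.87 against 13.81, 13.72 and 13.93 (2.86-fold, adjusted p = 0.00165). Esrrb, at or below the array medians in the chief samples, was at least 4.58-fold higher, at 8.70, 9.25 and 8.23. Esrra was not called, at 7.13, 8.82 and 8.20 against 9.45, 8.86 and 9.48 (adjusted p = 0.129), although the groups did not overlap.

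Ppara, a nuclear receptor for fatty acids, was at least 6.73-fold higher and Perm1, a muscle regulator downstream of PGC-1α, at least 3.23-fold higher. The only member called lower was Nrf1, a transcription factor of respiratory genes, at 8.04, 9.54 and 9.94 against 6.86, 6.52 and 8.09. Its groups overlapped, its adjusted p was 0.0498 and the call was lost without chief array 2 or 3 or parietal array 1 or 2. Leaving out any 1 parietal array left 7 members called higher of 34 tested, the mean over all probe sets of a gene also gave 7, and 23 were called with arrays centred.

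Pyruvate dehydrogenase, the TCA cycle and its shuttles were called higher in 31 and lower in 1 of 46 tested (47 with a probe set), with a median of 1.12. Pdhx, which holds the dehydrogenase complex together, read 6.39, 6.69 and 7.23 on chief arrays and 9.49, 10.35 and 9.48 on parietal arrays (8.02-fold, adjusted p = 0.00231). Got2, an aminotransferase of the malate-aspartate shuttle, was 3.49-fold higher. Dld, a dehydrogenase subunit, was 3.52-fold higher on its brightest probe set but differed by -0.045 with the mean of all its probe sets. The malic enzymes went opposite ways. Me3, the mitochondrial form, was at least 9.02-fold higher, at 9.80, 10.52 and 9.97 against 6.37, 7.69 and 6.37, and Me1, the cytosolic form that supplies NADPH, was 6.38-fold lower, at 9.30, 9.27 and 8.57 against 11.13, 12.10 and 11.93. With the mean over all probe sets of a gene 20 of 45 were called higher, and 2 were called lower without chief array 2.

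Fatty acid uptake and oxidation genes were called higher in 22 and lower in 3 of 45 tested (49 with a probe set), with a median of 0.77. Fabp3, the heart-type fatty acid binding protein, read 10.75, 10.57 and 10.57 on chief arrays and 14.35, 14.20 and 14.34 on parietal arrays, 12.7-fold higher (SE of the log2 difference 0.15, adjusted p = 1.01e-06). Cd36, a fatty acid transporter, read 8.52, 3.93 and 9.83 against 13.15, 12.89 and 13.14 (at least 27.3-fold), with a wide spread between chief arrays. Lpl, the lipase that frees fatty acids from lipoproteins, was 5.29-fold higher. Acacb, the acetyl-CoA carboxylase that controls fatty acid entry into mitochondria, was 6.85-fold higher. Fabp1, the liver-type binding protein, read 4.80, 2.90 and 3.22 against 12.10, 12.55 and 11.34 (at least 44.2-fold) and passed the filter through the parietal arrays alone.

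The binding proteins called lower were Fabp2, the intestinal form, at 11.36, 12.26 and 12 against 8.60, 8.76 and 1.79 (at least 17.5-fold), and Fabp5, by 1.19-fold. Acsl5, a fatty acid ligase, was 1.53-fold lower, and the differences of Acsl5 and Fabp5 turned positive with arrays centred. Leaving out parietal array 1 left 14 of 43 called higher and leaving out parietal array 3 left 12 of 43, and 11 of 45 were called without the intensity trend. The number called lower was 1 without chief array 2, chief array 3 or parietal array 2.

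Energy buffering by creatine and adenylate kinases was higher too, with 9 called higher and 0 lower of 21 tested (26 with a probe set, median 0.52). Ckb, brain-type creatine kinase, read 10.06, 9.90 and 9.89 on chief arrays and 13.10, 13.18 and 13.23 on parietal arrays, 9.32-fold higher (adjusted p = 1.29e-05). Slc6a8, the creatine transporter, was 5.49-fold higher. Ak1, a cytosolic adenylate kinase, was at least 21.2-fold higher, at 12.33, 12.54 and 12.65 against 5.24, 9.15 and 8.78. The count was 15 with arrays centred and 5 without the intensity trend.

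Glucose uptake and glycolysis genes were called higher in 13 and lower in 4 of 35 tested (44 with a probe set, median 0.40). These are 37.1% and 11.4%, against 11.2% and 12.1% of all genes, so the share called lower was near that of all genes. Slc2a4, the insulin-responsive glucose transporter of muscle and fat, read 5.52, 2.68 and 8.65 on chief arrays and 11.88, 12.19 and 11.83 on parietal arrays. Slc2a1, the widely expressed transporter, was not called, at 12.69, 12.84 and 12.65 against 12.75, 12.34 and 12.73 (adjusted p = 0.623), and its difference of -0.12 turns positive with arrays centred. Pfkfb3, which makes the activator of phosphofructokinase, was at least 16.9-fold higher, and Pfkl and Pfkm, liver and muscle phosphofructokinase, were 4.31-fold and 3.68-fold higher. Slc16a7, a carrier of pyruvate and lactate, was 4.96-fold higher, and the glycogen branching enzyme Gbe1 at least 4.17-fold.

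Members lower in the parietal samples were Fbp2, a gluconeogenic bisphosphatase (at least 6.68-fold), Slc2a5, the fructose transporter (at least 4.62-fold), Pklr, a pyruvate kinase of liver (at least 8.24-fold), and Tkt, of the pentose phosphate pathway (1.66-fold). Without parietal array 3 the count called higher was 8 of 31, without both arrays with high Xist 7 of 29, without the intensity trend 6 and with arrays centred 20. The count called lower was 2 without chief array 2, chief array 3 or parietal array 1.

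Several of these genes are the heart or skeletal muscle member of a family, so 11 families were set side by side, chosen after their values had been seen. Of the 11 muscle-type genes 9 were tested and 7 called higher, and of their 11 paralogs 7 were called higher and 1 lower. Several paralogs read near the top of the scale, where array maxima were 14.59 to 15.21, and the part of this in their smaller differences was not tested. Cox7a1 was 13.4-fold higher where Cox7a2 was 1.27-fold, and Slc25a4, the muscle form of the ADP/ATP carrier, 5.11-fold where Slc25a5 was 1.38-fold. Ldhb, the heart form of lactate dehydrogenase, was 4.07-fold higher and Ldha 1.32-fold. Ldha, counted here as the paralog, is itself the skeletal muscle form, so that pair does not set a muscle-type gene against another type. Other families did not follow: Cox6a2 was not called and was dim in both groups (6.91 to 7.67 and 6.18 to 6.80), Cox8b and Ckmt2 did not pass the filter, and Pfkl differed as much as Pfkm. Tnni3, cardiac troponin I, belongs to no list and was brought in after its value was seen, at 9.89, 9.43 and 8.98 on chief arrays and 13.49, 13.22 and 13.34 on parietal arrays (15.1-fold, adjusted p = 1.48e-05).

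**Figure D3:**
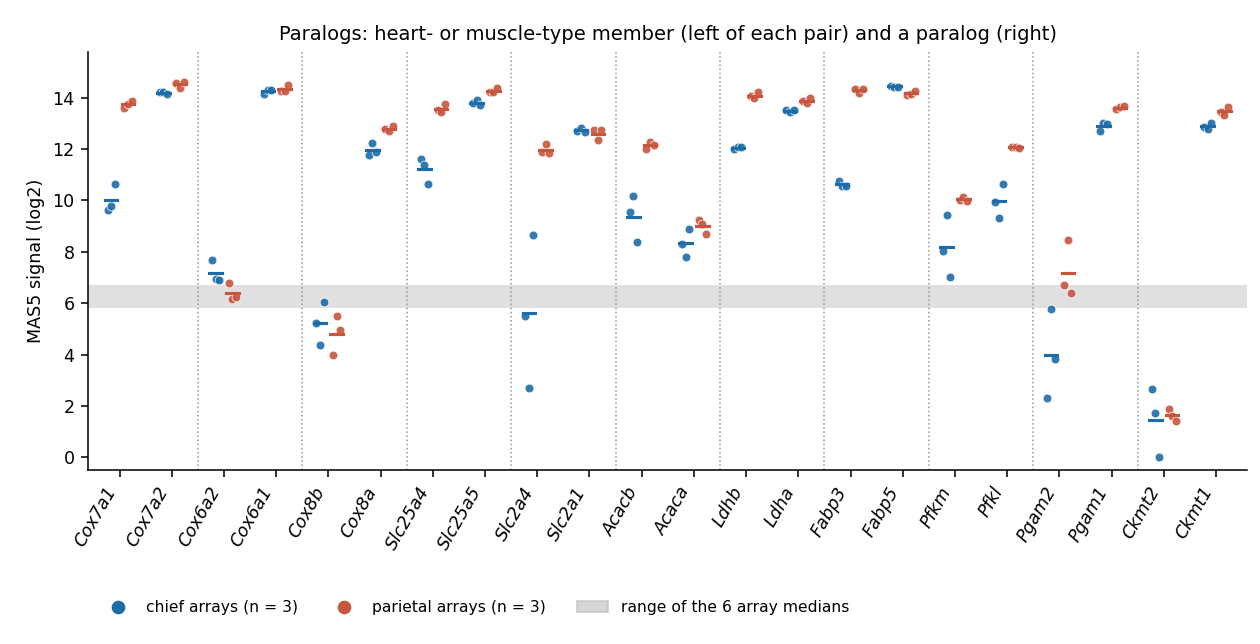
Log2 signal of the heart- or muscle-type member (left of each pair) and a paralog (right) of 11 families on the 3 chief (blue) and 3 parietal (red) arrays, with short lines for means and a grey band for the range of array medians. Cox7a1, Slc25a4, Ldhb and Fabp3 rose from the chief to the parietal arrays where Cox7a2, Slc25a5, Ldha and Fabp5 were bright in both. Ldha, drawn as the paralog of the heart form Ldhb, is itself the skeletal muscle form. The sign for Fabp5 and Slc2a1 turns with arrays centred.

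The 2 translation systems of the cell were set side by side. Mitochondrial ribosomal proteins were called higher in 19 and lower in 2 of 74 tested, with a median of 0.63, with Mrps9 (3.02-fold), Mrpl34 (2.96-fold) and Mrpl9 (2.89-fold). Cytoplasmic ribosomal proteins were called higher in 0 and lower in 31 of 43 tested, with a median of -0.49 that turned to 0.20 with arrays centred, when 1 was called lower and 5 higher. The lower quartile of the list was -0.68. Rps19, with one of its larger differences, read 12.68, 12.69 and 12.80 against 11.45, 11.76 and 11.46 (2.24-fold lower, adjusted p = 0.000875). Rpl22l1, a paralog of a core ribosomal protein, was 3.51-fold lower (adjusted p = 5.6e-05). Many ribosomal proteins have processed pseudogenes, and a probe set can read these copies too.

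The mitochondrial ribosome count was 7, 8 and 4 without parietal arrays 1, 2 and 3, 8 without the intensity trend, 11 without the filter or with the mean of all probe sets, and 54 with arrays centred. The cytoplasmic count was 2 without the intensity trend and 14 of 42 without both arrays with high Xist. Nucleolar ribosome biogenesis genes had 1 called higher and 6 lower of 50 tested, which is 2% and 12%, against 11.2% and 12.1% of all genes. The share called lower was thus near that of all genes. Their median of -0.48 became 0.21 with arrays centred. That count of 6 was 1 without chief array 3 and 3, 2 and 3 without parietal arrays 1, 2 and 3.

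Serine and one-carbon enzymes and other targets of the stress factor Atf4 had 11 called lower and 5 higher of 32 tested, with a median of -0.61 that turned to 0.08 with arrays centred. These are 34.4% and 15.6%, against 12.1% and 11.2% of all genes. Phgdh, the first enzyme of serine synthesis, read 11.93, 11.34 and 11.94 on chief arrays and 3.78, 6.72 and 2.67 on parietal arrays, at least 48.3-fold lower (adjusted p = 0.000337). Nupr1, a stress-induced nuclear protein, was 33.5-fold lower. Higher were Aldh1l1, a folate enzyme (8.17-fold), Ddit4, an inhibitor of mTOR (3.71-fold), and Gpt2, mitochondrial alanine aminotransferase (3.27-fold). Without chief array 1 the count called lower was 7, and without parietal array 1 the count called higher was 3.

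**Figure D4:**
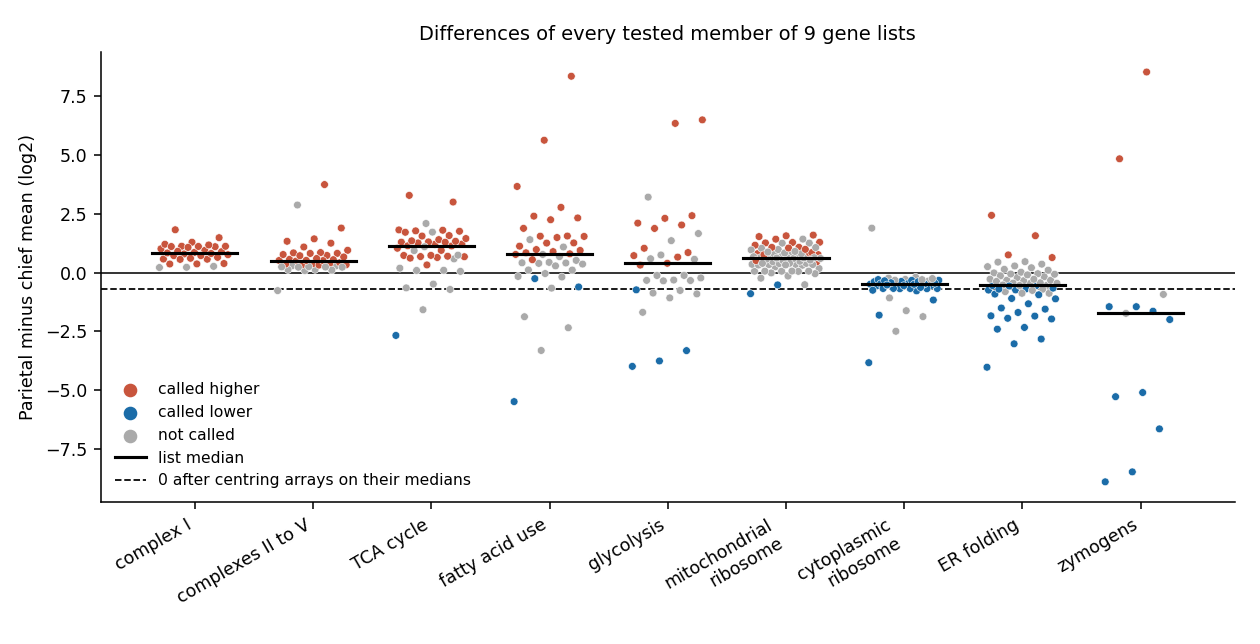
Difference of the parietal and chief means (log2) of every tested member of 9 gene lists; red points were called higher, blue lower and grey neither, black bars are list medians and the dashed line is where 0 would lie with arrays centred on their medians. The medians of complex I and the TCA cycle lie above both lines, while the cytoplasmic ribosome and ER folding medians lie between them, so their sign depends on the scaling.

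Iron, heme and iron-sulfur cluster genes were called higher in 12 and lower in 1 of 25 tested (28 with a probe set, median 0.81). Uros, a heme synthesis enzyme, was 4.16-fold higher, Isca2 and Nfs1, which build iron-sulfur clusters, 3.03-fold and 2.96-fold, and the transferrin receptor gene Tfrc 2.41-fold, at 12.36, 12.44 and 12.29 against 13.58, 13.69 and 13.63. Hamp, the iron hormone hepcidin, read 7.32, 7.85 and 9.74 on chief arrays and 12.54, 9.68 and 10.95 on parietal arrays, a called difference with overlapping groups (adjusted p = 0.0243). Ppox, another heme enzyme, was 3.44-fold lower, a call lost without chief array 1, chief array 2 or any 1 parietal array. The count was 21 with arrays centred and 7 without the intensity trend.

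Lysosomal genes were called higher in 19 and lower in 2 of 47 tested (49 with a probe set, median 0.62). Gabarapl1, a protein of autophagosomes, read 10.05, 10.38 and 10.47 on chief arrays and 12.98, 12.93 and 12.99 on parietal arrays (6.35-fold, adjusted p = 2.02e-05). Ppt1, a thioesterase, was 3.99-fold higher, the cholesterol exporter Npc1 3.22-fold and the V-ATPase subunit Atp6v1h 3.16-fold. The cathepsins Ctsc and Ctsz were 4.5-fold and 3.48-fold lower. The count was 31 with arrays centred and 10 without the intensity trend.

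Antioxidant enzymes split, with 10 called higher and 8 lower of 37 tested (median 0.17). Catalase (Cat) was 3.36-fold higher, at 11.58, 12.22 and 11.94 against 13.64, 13.65 and 13.69, and Gpx4 and Nnt, a lipid peroxidase and a mitochondrial source of NADPH, 2.84-fold and 2.69-fold. Gpx8, a peroxidase of the ER, was at least 11.3-fold lower and Nqo1, a quinone reductase, 3.07-fold lower. The count called lower was 5 without chief array 3 and 4 with arrays centred, and the count called higher was 20 with arrays centred.

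Growth factors and paracrine signals were tested in 26 genes, 4 called higher and 9 lower, median -0.94. These are 15.4% and 34.6%, against 11.2% and 12.1% of all genes, so the share called higher was near that of all genes. Of the 26 genes 2 passed the filter through the chief arrays alone. Egf, epidermal growth factor, read 7.43, 8.61 and 6.33 on chief arrays and 11.08, 11.39 and 10.68 on parietal arrays, at least 11.1-fold higher (adjusted p = 0.00132). Vegfb was at least 10.5-fold higher, Fgf1 6.63-fold and the chemokine Ccl28 at least 5.87-fold. Lower were Igf1 (10.39, 9.63 and 9.77 against 7.60, 7.42 and 3.59) and the alarmin Il33 (9.58-fold). Sostdc1, a secreted inhibitor of BMP and Wnt signals, was at least 68.0-fold lower. Shh, a morphogen that parietal cells are known to secrete, was also lower, at 10.49, 11.42 and 10.60 on chief arrays and 8.27, 9.02 and 6.85 on parietal arrays (6.92-fold, adjusted p = 0.00497). Without parietal array 1 the count called higher was 2, and with arrays centred it was 7.

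Markers of other epithelial cells were bright in the chief samples and lower in the parietal samples, and their part in the results above was not tested. Surface pit cell genes had 12 called lower and 2 higher of 17 tested, median -1.04. Muc5ac, the surface mucin, read 13.82, 13.82 and 13.52 on chief arrays and 10.62, 10.51 and 9.48 on parietal arrays, and Muc1 was 18.2-fold lower. The summed signal of all 17 was 175378 to 195365 on the chief arrays and 95189 to 104759 on the parietal arrays, and none was at 0 on an array. The exceptions higher in the parietal samples were Fut9, a fucosyltransferase, at 10.54, 10.90 and 10.45 against 3.23, 4.89 and 4.59 (at least 17.1-fold), and Tspan1 (1.68-fold). The 2 called higher are 11.8% of those tested, near the 11.2% of all genes. With arrays centred 7 were called lower, and the number called higher was 1 without parietal array 1 or 2 and 0 without parietal array 3. Fut9, which had passed the filter through the parietal arrays alone, was not among the 16 tested without 1 parietal array.

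Mucous neck cell genes had 7 called lower and 0 higher of 8 tested (12 with a probe set), median -2.20, and 4 of 7 without chief array 3. Spdef, a transcription factor of mucous cells, was at least 17.5-fold lower and Agr2, which folds mucins, 6.53-fold. Gkn3, at 12.02, 10.76 and 12.98 against 9.13, 10.19 and 4.71, did not overlap and was at least 11.5-fold lower. The summed signal of the 12 was 30086 to 66312 on the chief and 7006 to 13720 on the parietal arrays, with none at 0. Tuft cell genes had 3 of 19 tested and 1 called, Avil, an actin-binding protein, lower. Their summed signals overlapped, at 22253 to 29475 and 23033 to 27338, and most of that came from Cd24a, at 14.27 to 14.71 on all 6 arrays. The sum therefore says little about the other members. Of the 19 genes 12 lay below the array median on all 3 parietal arrays and 5 on all 3 chief arrays.

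Gastric endocrine genes gave a large list difference, a median of -5.42 over 24 tested of 35 with a probe set, or -3.18 when dim arrays are set to their medians. Of these 20 were called lower and 0 higher, but 11 of the 24 passed the filter through the chief arrays alone. Ghrl, ghrelin, read 14.11, 13.81 and 13.81 on chief arrays and 7.14, 7.93 and 5.71 on parietal arrays, at least 122-fold lower. Chga, a granule protein, was at least 119-fold lower (adjusted p = 2.45e-05), Chgb, its relative, at least 103-fold, and Hdc, which makes histamine, at least 49.2-fold. Sst, somatostatin, was 35.4-fold lower, at 12.16, 12.39 and 12.56 against 7.34, 7.71 and 6.62.

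The summed signal of the 35 endocrine genes was 55533 to 94522 on the chief and 2483 to 3620 on the parietal arrays. On the parietal arrays 20 of the 35 lay below the median on all 3, Scg2 was at 0 on all 3 and Mnx1 on 2. Gast, the antral hormone gastrin, read 14.48, 3.65 and 13.84 in the chief samples and was not called. The count called lower was 9 of 12, 10 of 12 and 8 of 11 without chief arrays 1, 2 and 3. Syp, a vesicle protein of endocrine cells and neurons, was an exception at 9.77, 8.81 and 8.03 on chief arrays and 10.41, 10.23 and 9.92 on parietal arrays, though not called (adjusted p = 0.0662).

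Cycling genes were lower in the parietal samples. DNA replication genes had 27 called lower and 0 higher of 53 tested (62 with a probe set, median -1.73), and mitosis genes 29 lower and 1 higher of 56 tested (68 with a probe set, median -3.13, or -2.09 with dim arrays set to their medians). Of these 4 and 7 passed the filter through the chief arrays alone. Mki67, a marker of cycling cells, read 12.22, 12.37 and 12.98 on chief arrays and 8.0, 8.10 and 8.28 on parietal arrays. Gins1, of the replication helicase, read 7.69, 8.60 and 10.86 against 1.75, 1.5 and 1.35 (at least 9.27-fold). The exception was Pttg1, securin, at 11.50, 11.98 and 12.25 against 13.13, 13.04 and 13.02 (2.22-fold higher). Replication genes called lower were 15 of 47 without chief array 2, 13 of 48 without chief array 3 and 16 of 51 without parietal array 3. They were 8 of 44 without both arrays with high Xist. Mitosis genes called lower were 15 of 44 without chief array 2, 16 of 44 without chief array 3 and 8 of 36 without both. The summed signal was 52726 to 76777 on the chief and 21692 to 27642 on the parietal arrays for replication genes, and 41924 to 78515 and 25691 to 28339 for mitosis genes.

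Foregut and epithelial transcription factors were called lower in 15 and higher in 1 of 27 tested (median -1.33). Klf4, a factor of surface cells, was 18.4-fold lower, at 13.06, 13.41 and 13.49 against 9.89, 9.08 and 8.39 (adjusted p = 3.78e-05). Id2, an inhibitor of basic helix-loop-helix factors, was higher, at 10.07, 10.61 and 10.81 against 12.95, 12.76 and 12.87 (5.15-fold, adjusted p = 8.25e-05). The count called lower was 9 of 26 without chief array 3, 8 without the intensity trend and 9 with arrays centred.

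Stem cell and Wnt genes were called lower in 9 and higher in 2 of 20 tested (28 with a probe set, median -1.70). These are 45% and 10%, against 12.1% and 11.2% of all genes, so the share called higher was near that of all genes. Of the 20 genes, 3 passed the filter through the chief arrays alone, Axin2 among them. Olfm4 passed it through the parietal arrays alone. Lgr5, the Wnt target that marks stem cells and some chief cells, read 8.05, 7.54 and 9.36 on chief arrays and 4.62, 6.26 and 4.0 on parietal arrays, at least 5.02-fold lower (adjusted p = 0.0191). Axin2, a general Wnt target, was at least 7.50-fold lower. Higher were Olfm4, a marker of intestinal stem cells (at least 7.36-fold), and the chromatin protein Bmi1 (2.75-fold). The count called lower was 5 of 15, 4 of 16 and 2 of 14 tested without chief arrays 1, 2 and 3 and 5 of 18 without parietal array 3. The count called higher was 1 without chief array 3 or parietal array 2 and 0 without parietal array 1 or 3. Olfm4 was not tested without any 1 parietal array.

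**Figure D5:**
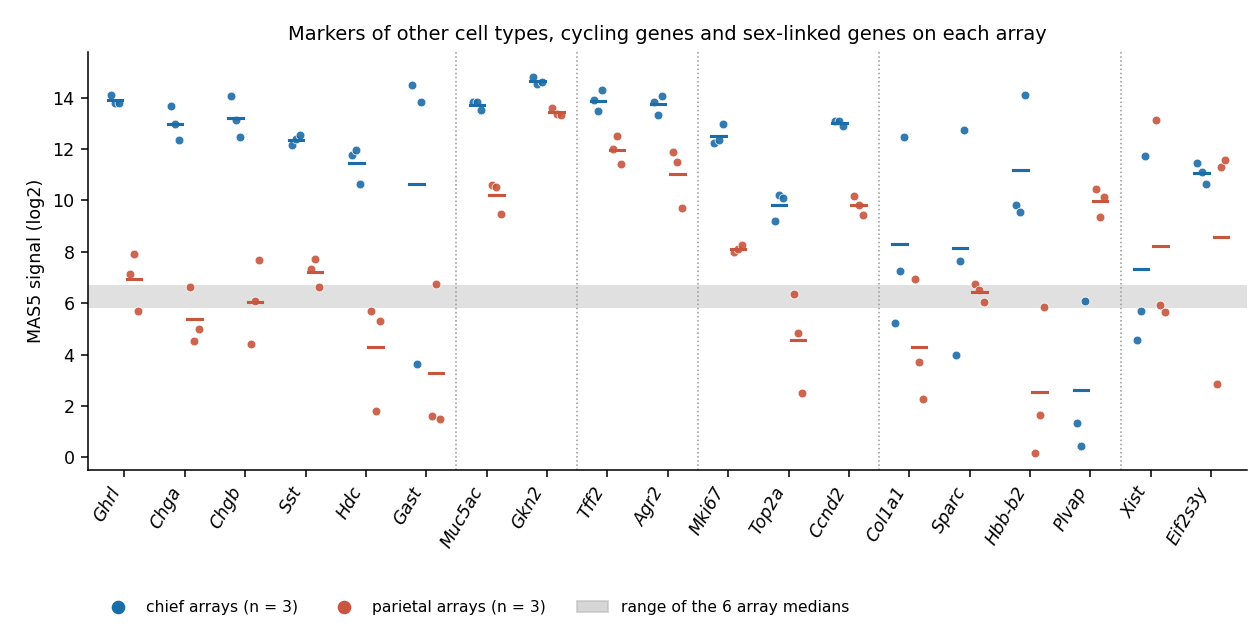
Log2 signal of markers of endocrine, surface pit and neck cells, cycling genes, stromal, blood and endothelial genes and sex-linked genes on the 3 chief (blue) and 3 parietal (red) arrays, with short lines for means and a grey band for the range of array medians. Ghrl, Chga and Mki67 separate the groups, while Gast, Col1a1, Sparc, Xist and Eif2s3y vary between arrays of one group.

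Markers of cells outside the epithelium were mostly dim. Leukocyte genes passed the filter in 2 of 27 and none was called. Their summed signal was 2404 to 6272 on the chief and 484 to 781 on the parietal arrays, with Ptprc, which marks all leukocytes, at 4.47, 2.68 and 8.80 and at 3.35, 0.00 and 3.83. Fibroblast genes summed to 917 to 37253 on the chief arrays, the top being chief array 3, and 770 to 1200 on the parietal arrays. Endothelial genes had 4 of 15 tested and summed to 955 to 1379 and 1348 to 2137, and the defining gene Pecam1 lay below every array median. The exception was Plvap, a protein of fenestrated endothelium, at 1.34, 0.43 and 6.10 on chief arrays and 10.46, 9.34 and 10.13 on parietal arrays (at least 10.9-fold higher), which passed the filter only with all 3 parietal arrays.

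Immediate early and heat shock genes, which handling of cells can induce, were called lower in 11 and higher in 1 of 34 tested (median -0.88). With arrays centred 5 were lower and 7 higher, with a median of -0.18. Fosb read 11.50, 11.27 and 11.36 on chief arrays and 6.63, 6.05 and 6.61 on parietal arrays, 30.8-fold lower (adjusted p = 3.83e-05), and Egr1 was 4.91-fold lower. Dusp6, a phosphatase induced by growth factor signals, was 7.62-fold higher. These values moved with the group, and the collection of the parietal cells is not known, so their part in the other differences was not tested.

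Genes known from intestinal epithelium went both ways, 4 called higher and 8 lower of 13 tested. The members called higher were Fabp1, the liver fatty acid binding protein (at least 44.2-fold), and 3 apolipoprotein genes, Apoa4 at 7.17, 5.10 and 7.95 on chief arrays and 12.93, 12.37 and 12.62 on parietal arrays (at least 43.1-fold), Apoa1 4.89-fold and Apoc3 at least 2.09-fold. Members called lower included Anpep, a brush border peptidase, at 13.60, 13.09 and 12.83 against 8.29, 8.78 and 7.71 (30.1-fold, adjusted p = 1.64e-05), and Lgals4, a galectin (13.2-fold). The count called higher was 2 of 11 tested without any 1 parietal array, and the count called lower was 3 of 11 without chief array 2 or 3. Of the 13 genes, 2 had passed the filter through the parietal arrays alone and 2 through the chief arrays alone. Those genes could not be tested in these fits, so the fall in the counts is partly fixed by the filter.

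Lipid synthesis genes had 7 called lower and 2 higher of 27 tested, with a median of -0.07 that turned to 0.63 with arrays centred. Scd1 and Elovl6, a desaturase and an elongase, were brightest on chief array 3, at 12.35 and 12.43 against 7.42 to 7.98 and 9.42 to 9.46 on the other chief arrays. Scd2, a second desaturase, was 3.91-fold lower on steadier readings, 11.83, 11.40 and 11.84 against 9.23, 9.69 and 10.25. Without parietal array 3 the lower calls numbered 4, and with arrays centred 3. The count called higher was 1 without parietal array 1 or 2, 0 without parietal array 3 and 7 with arrays centred.

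Among the genes with the largest differences outside these lists were B4galnt2, a glycosyltransferase, at least 86.0-fold higher, Gpr155, a membrane protein of lysosomes, at least 67.2-fold, and Speer4cos, at least 14.5-fold. Mycn, a Myc family transcription factor, read 2.44, 2.14 and 2.02 on chief arrays and 10.54, 10.14 and 10.55 on parietal arrays, at least 14.7-fold higher. Kit, the receptor of stem cell factor, read 5.47, 5.67 and 4.53 against 10.80, 11.25 and 11.42 (at least 24.7-fold). Both passed the filter through the parietal arrays alone, as did B4galnt2 and Speer4cos. Hecw2, a ubiquitin ligase, and Tmem178, a membrane protein that regulates calcium, were at least 27.9-fold and 22-fold higher, each with 1 chief array apart from the others (0.00 and 7.54). Of these, Hecw2 passed the filter through the parietal arrays alone. Igfbp2, which binds insulin-like growth factors, was noticed in the table of all genes and read 7.10, 6.61 and 6.89 against 11.94, 12.26 and 12.33 (39.7-fold, adjusted p = 1.51e-05).

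In the other direction Mug1, a protease inhibitor, read 11.76, 9.73 and 9.04 on chief arrays and 0.45, 1.45 and 0.00 on parietal arrays, at least 20.3-fold lower, having passed the filter through the chief arrays alone. Fxyd6, a regulator of the sodium pump, was at least 20.6-fold lower, Cdo1, which breaks down cysteine, at least 21.6-fold, and Pirt, a membrane protein of sensory neurons, at least 33.8-fold. Fxyd6, Cdo1 and Pirt also passed the filter through the chief arrays alone. Cpe, the carboxypeptidase of hormone granules, was at least 27.3-fold lower. The parietal readings of these genes lay mostly below the array medians, so the folds are bounds and the order of these genes carries no weight.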

How the data were processed

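The values are log2 signals of 9 Affymetrix mouse arrays deposited by the authors as a table of the whole series, made with MAS5 per the submitters' processing notes, with a 0.00 floor in the table. RNA was extracted with an Ambion kit and labelled as biotinylated cRNA, per the labels' protocols. The number of arrays, 3 a group, limits the precision. Of the probe sets, 34945 name 1 gene, 932 several and 9160 none in the platform annotation. Each gene is read by its brightest probe set naming it alone, and genes above the array median on 3 of the 6 arrays were tested with limma 3.58.1 in R 4.3.3 (intensity trend, Benjamini-Hochberg adjustment over all genes tested). The fit was tested on simulated data.

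The comparison and the gene lists were chosen with earlier results of these data known. The genes described were drawn from the 15 largest differences in each direction among called genes with separate groups and a mean above 10, from up to 4 called members of each list in each direction, of which not all are described, and from a set of lineage markers. Further genes, such as Kcnq1, Slc4a2, Cckbr, Car2, Ezr, Chia1, Rab3d, Rab27a, Xbp1, Hspa5, Tfrc, Lpl, Shh, Sst and the paralogs, were chosen after their values were seen. Alternatives tried were quantile normalization, centring, pseudocounts of 16 and 64, no filter or one at the 75th percentile, the mean of all probe sets, all 9 arrays, a replicate block, no trend, a 2-fold minimum, and leaving out each array or both with high Xist.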

Additional observations from a re-analysis of the deposited data

How the results depend on the processing

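The counts of 1162 genes called higher and 1252 called lower stayed within 1.5 times under quantile normalization, both pseudocounts, the fit without a filter, the filter at the 75th percentile, the mean of all probe sets and the fit with all 9 arrays. Centring gave 3169 higher and 691 lower, no intensity trend 683 higher, the test against a 2-fold minimum 225 higher and 361 lower, and leaving out both arrays with high Xist 558 higher and 497 lower. Leaving out 1 array gave 644 to 1160 higher and 717 to 1019 lower. Same-numbered arrays correlated at -0.0076, -0.0037 and -0.040 in their deviations from the group means, against -0.017 to 0.026 for differently numbered pairs. These values show no shared deviation by replicate number, but with so few arrays a group they cannot tell whether same-numbered samples were paired. The labels do not say whether they were. A fit with the replicate number as a block gave 1087 higher and 1155 lower.

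Medians that turned sign with arrays centred were 0.63 for all genes, 0.16 for ER folding, 0.37 for ER to Golgi genes, 0.20 for cytoplasmic ribosomes, 0.21 for ribosome biogenesis, 0.082 for Atf4 targets, 0.24 for tRNA synthetases, 0.31 for histones, 0.38 for junctions, 0.63 for lipid synthesis and 0.24 for endothelium. That of all genes was 0.062 with quantile normalization and 0.11 with the filter at the 75th percentile, which also gave 7.35 for endothelium. Leaving out 1 array gave medians of -0.03 to 0.72 for carbonic anhydrases, -1.85 to 0.22 for tuft cell genes, -0.29 to 0.058 for lipid synthesis, -0.21 to 2.04 for leukocytes, -4.11 to 0.62 for fibroblasts and -3.86 to 0.39 for sex-linked genes. Without both arrays with high Xist the medians of lipid synthesis, fibroblasts and sex-linked genes were 0.013, 0.47 and 0.17. Among genes, centring turned Acsl5 (0.083), Fabp5 (0.44), Slc2a1 (0.57) and Xbp1 (0.48), and the mean of probe sets turned Dld (-0.045). Leaving out 1 array gave -0.073 to 0.092 for Car2, -0.54 to 0.99 for Cckbr, -3.99 to 0.39 for Eif2s3y, -0.19 to 0.013 for Slc2a1, -3.77 to 0.62 for Sparc and -0.47 to 2.20 for Xist. Leaving out both arrays with high Xist turned Cckbr (-0.69), Eif2s3y (0.17) and Sparc (0.47). The cause was not tested. Signals near the array medians limit the folds, which are bounds there.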

Other observations

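Of 7 MHC class II genes with a probe set 3 were tested, all of which passed the filter through the chief arrays alone and so had to differ. Cd74, the invariant chain, read 10.05, 9.13 and 8.46 on chief arrays and 5.04, 2.71 and 2.69 on parietal arrays (at least 10.4-fold). Interferon-stimulated genes had 9 called lower and 0 higher of 26 tested (median -1.55), with Oasl2, an antiviral protein, at least 12.4-fold lower. That count was 4 of 21 tested without chief array 1 and 3 of 20 without chief array 3.

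Imprinted genes had 7 called lower and 0 higher of 16 tested (median -1.59). The count called lower was 1 of 12, 2 of 13 and 3 of 12 without chief arrays 1, 2 and 3. Of the 16 genes, 3 had passed the filter through the chief arrays alone and were not tested there. Without parietal arrays 2 and 3 the count called lower was 3 of 16 and 4 of 16. Peg3, a zinc finger protein, was at least 40.5-fold lower. Cdkn1c, a cell cycle inhibitor, read 11.93, 8.85 and 10.93 on chief arrays and 8.46, 1.72 and 2.28 on parietal arrays. Junction and keratin genes had 8 called lower and 1 higher of 24 tested, with a median of -0.32 that turned to 0.38 with arrays centred, when 4 were lower and 6 higher. Without chief array 3 the lower count was 4, and it was 5 without parietal array 3, while the count called higher was 0 without chief array 1, chief array 3 or any 1 parietal array. Krt19, a keratin of simple epithelia, was 5.17-fold lower on close replicates, 14.03, 13.86 and 14.15 against 11.74, 11.81 and 11.38 (limma adjusted p = 1.48e-05), while Krt8 was 1.63-fold lower. Histone genes had 4 called lower and 1 higher of 9 tested, or 2 and 0 without any 1 parietal array. The tRNA synthetases had 3 lower and 0 higher of 19. Both lists had medians that turn with arrays centred. Of all genes 12.1% were called lower and 11.2% higher. The tRNA synthetase share called lower and the histone share called higher were near these.

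Smooth muscle genes had 2 called lower of 2 tested, red blood cell genes 1 of 2 and antral genes 1 of 2. Leaving out any 1 chief array left 1 gene tested and 0 called for smooth muscle and for red blood cells. The smooth muscle gene Mylk and the red blood cell gene Hbb-b2 had passed the filter through the chief arrays alone. They could not be tested there, so the loss of their calls was fixed by the filter. Leaving out any 1 parietal array left 1 called for smooth muscle. The antral count was 0 without chief array 1, chief array 3 or parietal array 3 and 2 without chief array 2. Hbb-b2, a globin gene, was at least 40.3-fold lower and brightest on chief array 3. Their summed signals on the chief arrays were 1563 to 2206, 3948 to 24692 and 237 to 24040, against 197 to 647, 2590 to 2901 and 73 to 389 on the parietal arrays.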
